A study of Mus musculus with 64 samples.

Results

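The sites of TCF7L1 and of TCF7L2 were compared in naive mouse embryonic stem cells (naive ESC) by chromatin immunoprecipitation and sequencing (ChIP-seq). The comparison took 6 of the 64 libraries of the series: 3 made with a goat antibody that the labels call TCF3 (TCF7L1) and 3 made with a goat antibody that they call TCF4 (TCF7L2), each set labelled as biological replicates. All 6 came from cells labelled wild-type, strain HM1 (129), which per the study's methods are the HM1 TetON line, the parent of its other lines. They were expanded in serum and LIF and returned to naive pluripotency in 2i medium, which held 3 µM CHIR99021, an activator of the WNT pathway, and 500 nM PD0325901, an inhibitor of MEK. The labels give every library used here a time point of 72 h. Each target was read with a single antibody, and no library of cells without the target was used here. The other conditions, used only where named, were CEpiLC (wild-type caudal epiblast-like cells, given bFGF, the WNT secretion inhibitor LGK974 and later CHIR99021) and Sox2-/- cells with a doxycycline-dependent SOX2 transgene in the same differentiation, with doxycycline kept (SOX2-ON) or withdrawn (SOX2-OFF).

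TCF7L1 and TCF7L2 belong to the TCF/LEF family of HMG-box proteins, which recognise a short sequence, CTTTGAA or CTTTGAT, and recruit β-catenin when the WNT pathway is active. In embryonic stem cells TCF7L1 is the most abundant member and is best known as a repressor of pluripotency genes, which β-catenin relieves. TCF7L2 is known in many tissues as an activator of WNT target genes. TCF3 and TCF4, the names on the labels, are also the symbols of E proteins, which bind another sequence, the E-box.

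The deposited lists held 660387, 23347 and 117055 peaks for TCF7L1 replicates 1 to 3, and 29611, 73121 and 452935 for TCF7L2. List length did not separate the targets: mean log10 of the number of peaks was 5.09 ± 0.726 (SD, n = 3) for TCF7L1 and 5.00 ± 0.603 for TCF7L2, and an exact permutation test, two-sided, gave p = 0.8. Every list was therefore shortened to its 10000 peaks of highest −log10 p. The shortened lists still differed: median peak width was 432, 375 and 570 bp in TCF7L1 and 105, 179 and 274 bp in TCF7L2. The lowest −log10 p kept was 24.2, 16.4 and 44.8 against 7.74, 9.48 and 13.6. Overlaps and Jaccard indices below were not adjusted for width or strength. Peaks overlapping by 1 bp or more were joined, which gave 36119 sites. Read depth was not given with the lists.

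A peak in all 3 TCF7L1 lists and in none of the 3 TCF7L2 lists made a TCF7L1-only site, and there were 3930 of these, 10.9% of the merged sites. TCF7L2-only sites, defined the other way round, numbered 999 (2.77%). Shared sites, with a peak in all 6 lists, numbered 450 (1.25%). Most of the remaining sites were in few lists, and 20716 were in 1 TCF7L2 list alone against 4176 in 1 TCF7L1 list alone. These classes describe shortened lists. In the full lists of the other target, 1652 TCF7L1-only sites (42.0%) and 409 TCF7L2-only sites (40.9%) had no peak at all. Leaving out TCF7L2 replicate 1 raised the shared sites to 830 and leaving out TCF7L2 replicate 3 raised them to 693, partly because fewer lists then had to hold a peak.

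The sequences below come from the 5 sites of highest median deposited fold in each class, where the sites of a single target also had no peak in any full list of the other. They are on the plus strand of GRCm38 (mm10), and show what lay under the summits. Capitals mark the match nearest the summit. For sites that held the TCF sequence the capitals mark it, with 81 bases in all, whereas Pdzrn4 and 1700015G11Rik among the TCF7L1-only sites and Filip1l among the shared sites held none:

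Mogat2, TCF7L1-only, chr7:99237011-99237091: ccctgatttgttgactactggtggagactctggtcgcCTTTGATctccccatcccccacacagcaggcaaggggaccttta
Ppa2, TCF7L1-only, chr3:133357646-133357726: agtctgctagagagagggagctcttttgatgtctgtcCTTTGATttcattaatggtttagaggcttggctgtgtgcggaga
Efr3a, shared, chr15:65749676-65749756: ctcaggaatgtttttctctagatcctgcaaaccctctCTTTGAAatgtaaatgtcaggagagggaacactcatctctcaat
Trim42, shared, chr9:97477144-97477224: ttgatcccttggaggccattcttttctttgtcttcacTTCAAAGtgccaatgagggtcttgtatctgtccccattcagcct

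The Mogat2 and Ppa2 matches lie in introns of those genes, the Efr3a match lies between genes and the Trim42 match lies in an intron of Clstn2, with Trim42 as the gene of the nearest start. None of the 5 TCF7L2-only sites had a TCF sequence within 100 bp of the summit. In 4 of the 5 the capitals mark the palindrome TCTCGCGAGA, which is shown with 29 bases because the sites lie at gene starts:

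Qrich1, TCF7L2-only, chr9:108517051-108517079: acgctccggtTCTCGCGAGAagggccttc
Scamp5, TCF7L2-only, chr9:57468103-57468131: gcaaccacTCTCGCGAGActcccacactg
Rps19, TCF7L2-only, chr7:24884574-24884602: cactccgaaaTCTCGCGAGActcgacgcc
Wdr77, TCF7L2-only, chr3:105959269-105959297: ctcgcacaTCTCGCGAGAagagatcagct

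The libraries of each target resembled each other more than those of the other target. The Jaccard index, the base pairs shared by a pair of lists over those covered by either, was 0.483, 0.449 and 0.501 between TCF7L1 libraries and 0.146, 0.0950 and 0.129 between TCF7L2 libraries. Between targets it lay from 0.0252 to 0.114. The mean within targets was 0.300 and the mean between targets 0.0612, a difference of 0.239 with p = 0.1 in a one-sided exact permutation test, the smallest p that the 10 splits of 6 libraries allow (adjusted p = 0.117 over the 7 tests of naive ESC). TCF7L2 replicate 2 was the closest of the TCF7L2 libraries to every TCF7L1 library, at 0.103, 0.114 and 0.0857.

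TCF7L1 sites were distal and TCF7L2 libraries held more sites at gene starts. Of the 10000 strongest peaks, 5.34%, 3.94% and 4.75% of TCF7L1 replicates 1 to 3 had their summit within 1000 bp of the start of a protein-coding transcript. In the TCF7L2 libraries the promoter share was 21.1%, 20.4% and 15.2%. The groups did not overlap. The mean was 4.68% ± 0.703 (SD, n = 3) for TCF7L1 and 18.9% ± 3.23 for TCF7L2, a difference of −14.2 percentage points (exact permutation p = 0.1, two-sided, the smallest that 3 against 3 libraries can reach; adjusted p = 0.117). The difference shrank with longer lists, from −46.8 with 2000 peaks to −2.10 with all deposited peaks (exact permutation p = 0.4).

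The TCF sequence, searched as CTTTGAA or CTTTGAT on both strands within 100 bp of the summit, was common in TCF7L1 peaks and less so in TCF7L2 peaks. It was found at 44.5%, 45.5% and 44.8% of TCF7L1 peaks and at 13.1%, 20.3% and 13.5% of TCF7L2 peaks, with no overlap between the groups and a mean difference of 29.3 percentage points (exact two-sided permutation p = 0.1, adjusted p = 0.117). As a level to set beside these, 4.26% of the 21864 protein-coding promoters, read over windows of the same length at 1 start a gene, held this sequence. Most peaks of both targets lay away from gene starts, however. Windows 5 kb from the summits of the 3 site classes held it at 7.41% to 8.73%.

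Overlap with β-catenin, SOX2 and LEF1 in the same cells followed the same order. TCF7L1 peaks were wider, and a wider peak can meet a partner site more readily. A β-catenin site, counted where at least 2 of the 3 shortened β-catenin lists had a peak, was present at 65.9%, 71.0% and 71.9% of TCF7L1 peaks and at 10.8%, 24.3% and 12.7% of TCF7L2 peaks. For SOX2, an HMG-box factor of pluripotent cells, the shares were 43.2%, 45.3% and 47.5% against 8.26%, 16.7% and 9.63%. For LEF1, another TCF/LEF member, they were 9.90%, 9.83% and 9.89% against 4.36%, 6.82% and 4.12%. The groups did not overlap for any of the 3 partners. The mean differences were 53.7, 33.8 and 4.77 percentage points, each with exact two-sided permutation p = 0.1 (adjusted p = 0.117). The LEF1 difference depended on how LEF1 sites were counted: it was 0.0033 percentage points (exact permutation p = 1) for sites in all 3 LEF1 lists and 28.8 for sites in any of them. With all deposited peaks in place of the 10000 strongest, the groups overlapped for all 3 partners, with differences of 27.1, 24.8 and 7.98 percentage points (exact permutation p = 0.3, 0.3 and 0.4). The LEF1 lists were unlike each other, and the first of them held the TCF sequence at 8.10% of its 1000 strongest peaks against 55.4% and 34.9% in the other libraries.

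**Figure D1:**
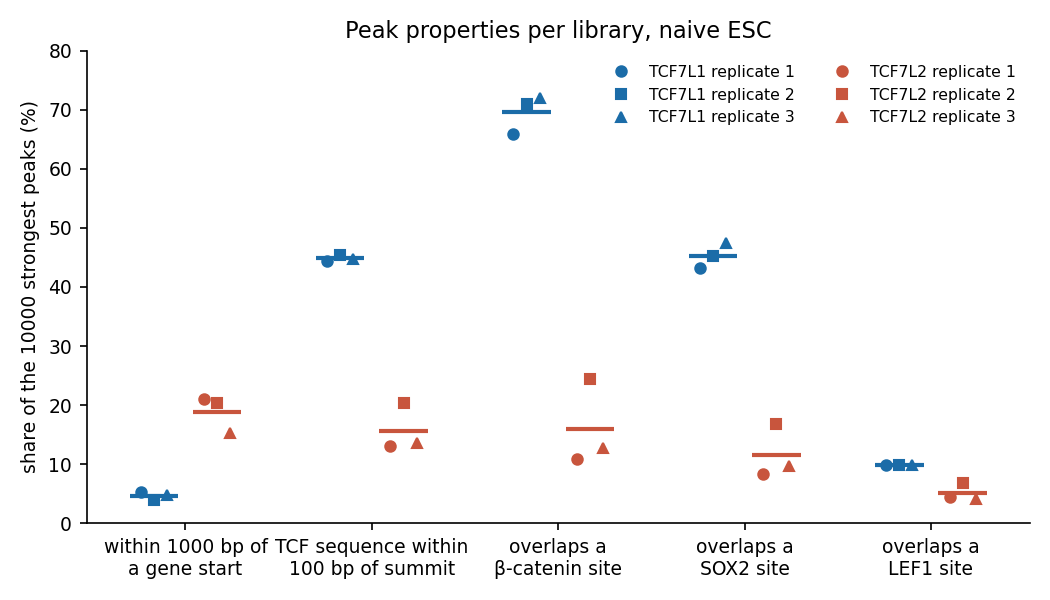
Share (%) of the 10000 strongest peaks of each of the 6 naive ESC libraries with each property. Points are libraries and bars are the means of 3. TCF7L1 libraries lie above TCF7L2 libraries for the TCF sequence and for all 3 partners, and below them for gene starts.

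The promoter share of TCF7L2 was highest in the strongest peaks. Among the 1000 peaks of highest −log10 p, 76.0%, 66.6% and 65.3% of the TCF7L2 libraries' peaks were at gene starts, against 4.2%, 3.6% and 3.5% in TCF7L1. Between ranks 5001 and 10000 the TCF7L2 promoter shares were 10.7%, 9.62% and 6.48%, against 6.32%, 4.20% and 5.42% in TCF7L1. In TCF7L1 the TCF sequence was most frequent at the top, at 63.6%, 61.2% and 63.0% of the first 1000 peaks, and was at 38.2%, 41.4% and 40.8% from rank 5001. In TCF7L2 it was at 11.2%, 21.4% and 21.3% of the first 1000, at 24.3%, 41.1% and 23% of the next 1000, and at 11.1%, 13.5% and 10.4% from rank 5001. TCF7L2 peaks away from gene starts held it at 14.9%, 23.5% and 14.8%, and those at gene starts at 6.45%, 7.85% and 6.25%. The E-box, searched as CAGCTG or CAGGTG, was at 18.5%, 18.7% and 16.9% of the first 1000 TCF7L2 peaks, below the 24.8% of all protein-coding promoters. In the first 1000 TCF7L1 peaks the E-box was at 31.1%, 29.1% and 29.6%. It was at 32.2% of TCF7L1-only sites against 20.5% of windows 5 kb away, and at 26.9% of shared sites against 23.1%.

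Most shared sites held the TCF sequence and most TCF7L2-only sites did not. The TCF sequence was within 100 bp of the summit at 296 of 450 shared sites (65.8%), at 1675 of 3930 TCF7L1-only sites (42.6%) and at 33 of 999 TCF7L2-only sites (3.3%). Windows 5 kb away from the same summits held it at 8.0%, 8.73% and 7.41%. The SOX sequence, searched as CATTGT or CTTTGT, was at 48.7% of shared, 51.0% of TCF7L1-only and 8.61% of TCF7L2-only sites, against 26.0%, 25.4% and 26.8% at 5 kb. The OCT sequence ATGCAAA was at 12.2%, 10.7% and 1.60%, against 4.44%, 4.33% and 3.20% at 5 kb. The ESRRB sequence AAGGTCA was at 7.56%, 10.4% and 1.70%, against 4.44%, 4.61% and 4.50%. Over all protein-coding promoters the TCF, SOX, OCT and ESRRB sequences were at 4.26%, 16.3%, 2.29% and 2.25%. ESRRB and OCT4 are factors of naive pluripotency.

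TCF7L2-only sites were gene starts of high CpG content. Of the 999, 867 (86.8%) had their summit within 1000 bp of a start and 51.2% within 100 bp, with a median distance of 0.095 kb. TCF7L1-only sites were at gene starts in 130 of 3930 cases (3.31%), in introns in 48.9% and between genes in 44.4%, with a median distance of 26.2 kb. Shared sites resembled these, with 33 of 450 at gene starts (7.33%), 52.7% in introns and 36.7% between genes. Median GC content within 100 bp of the summit was 65.2% in TCF7L2-only sites against 46.8% in TCF7L1-only and 48.3% in shared sites. The median ratio of observed to expected CpG was 0.931, 0.132 and 0.220 in the same order. Sequences of promoter factors were correspondingly present in TCF7L2-only sites: the ETS sequence CCGGAAG at 14.1%, the NRF1 sequence GCGCATG at 6.81% and the KLF sequence, searched as GGGCGTG or GGGTGTG, at 16.8%. Over all protein-coding promoters these were at 9.01%, 3.4% and 12.1%.

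**Figure D2:**
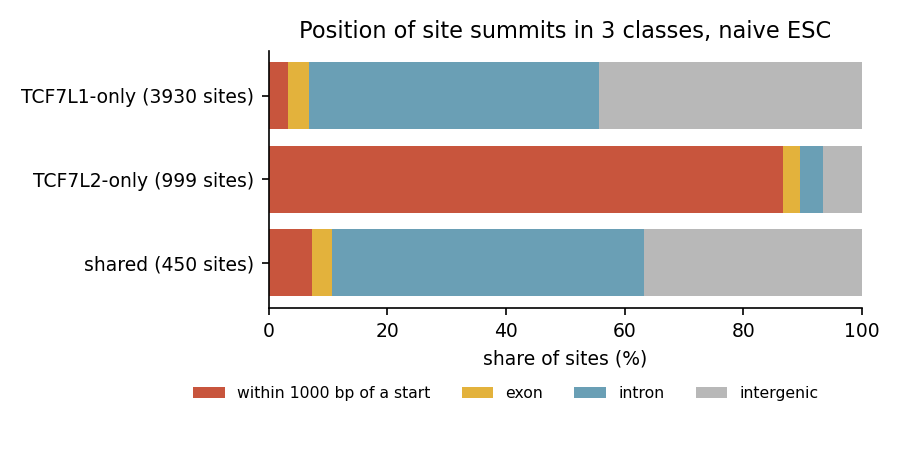
Share (%) of site summits in each position for the 3 classes. TCF7L2-only sites are 86.8% within 1000 bp of a protein-coding start, TCF7L1-only sites 3.31% and shared sites 7.33%.

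A word outside the list of sequences searched stood out in the TCF7L2-only sites, and was chosen after their values were seen. The 8 letters most frequent at the 550 TCF7L2-only sites of the odd-numbered chromosomes, relative to windows 5 kb away, were TCGCGAGA (TCTCGCGA on the other strand), at 34.0%. On the other chromosomes, which had no part in that choice, they were at 32.7% of 449 TCF7L2-only sites and at 0% of the windows 5 kb away. The letters CGCGAG within it were at 79.0% of all 999 sites, against 11.6% of all protein-coding promoters, and the full palindrome was at 16.4% against 0.439%. The 8 letters were in 0 of 3930 TCF7L1-only sites and in 1 of 450 shared sites. Where a TCF7L2-only site held them they lay a median of 6 bp from the summit, with 93.4% within 25 bp. The TCF sequence lay a median of 20 bp from the summit in TCF7L1-only sites and 19 bp in shared sites.

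Most promoters that held the CGCG word had a TCF7L2 site. Of 21864 protein-coding promoters, 207 (0.947%) held TCGCGAGA within 100 bp of the start. They were counted on all chromosomes, including those where the word was chosen at TCF7L2-only sites. The TCF7L2 shares for this word were thus partly set by that choice and are not a test. A TCF7L2 site, with a peak in all 3 TCF7L2 lists, lay at 188 of these 207 (90.8%), and at 2.85% of the promoters without it. A TCF7L1 site lay at 2 of the 207 (0.966%) and at 0.540% of the others. A TCF7L2 site lay at 2.90% of the promoters with the TCF sequence and 3.72% of those without, and a TCF7L1 site at 2.69% and 0.449%. Neighbouring genes that share a promoter are counted for each gene. The palindrome is the CGCG element of CpG-rich promoters, which the protein BANP is known to bind. The highest deposited fold in each TCF7L2 list, 235, 318 and 290, was at the promoter of Banp itself (chr8:121949913-121950930), a gene named after its values were seen. TCF7L1 replicate 1 had a fold of 6.37 there, and the other TCF7L1 lists had no peak. Which protein the TCF7L2 antibody recovered at these promoters was not tested.

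**Figure D3:**
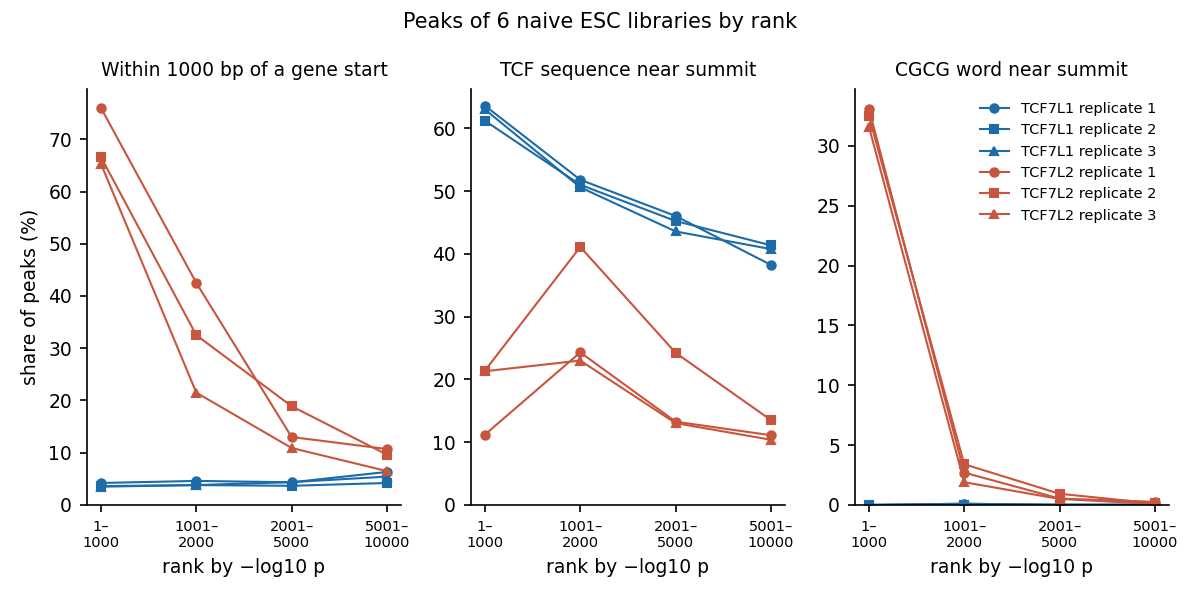
Share (%) of peaks at gene starts, with the TCF sequence and with the CGCG word TCGCGAGA within 100 bp of the summit, by rank of −log10 p, for each of the 6 naive ESC libraries. In the first 1000 TCF7L2 peaks the CGCG word is at 33.1%, 32.5% and 31.6%, and in TCF7L1 it is at 0%.

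Among the naive ESC libraries read, the CGCG word was concentrated in the strongest TCF7L2 peaks. In the first 1000 peaks of the 9 β-catenin, SOX2 and LEF1 libraries it was at 0% to 0.1%. The TCF7L2 libraries held it at 2.7%, 3.4% and 1.9% of ranks 1001 to 2000 and at 0.533%, 0.933% and 0.5% of ranks 2001 to 5000. From rank 5001 to 10000 they held it at 0.26%, 0.12% and 0.08%. The strength of the peaks followed the same split. TCF7L2-only sites had a median rank of 573, 620 and 608 in TCF7L2 replicates 1 to 3, and shared sites of 1722, 1050 and 1040. In the TCF7L1 libraries the order was the other way round: shared sites had a median rank of 377, 380 and 396 and TCF7L1-only sites of 4493, 4476 and 4433. The median deposited fold at shared sites was 64.9, 50.9 and 118 in TCF7L1 and 7.61, 14.7 and 12.1 in TCF7L2.

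**Figure D4:**
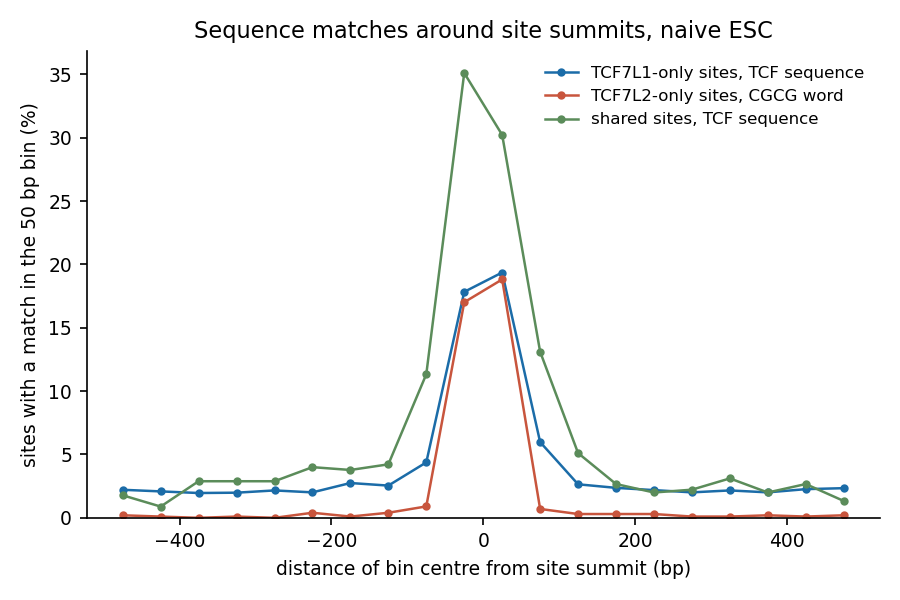
Share (%) of sites with a match in each 50 bp bin, by distance of the bin from the site summit (bp). The TCF sequence in TCF7L1-only and shared sites and the CGCG word TCGCGAGA in TCF7L2-only sites are highest in the bins next to the summit.

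At shared sites the summits of the targets lay close together. The median distance between TCF7L1 and TCF7L2 summits was 22 to 31 bp over the 9 pairs of libraries. Between TCF7L2 libraries it was 29, 39.5 and 32.5 bp, and between TCF7L1 libraries 16, 16 and 12 bp.

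Among their strongest peaks, β-catenin, SOX2 and LEF1 held a larger share of shared sites than of TCF7L1-only sites, and the smallest share of TCF7L2-only sites. The 10000 strongest β-catenin peaks held 99.3%, 95.8% and 99.1% of shared sites, 85.8%, 63.1% and 84.0% of TCF7L1-only sites and 3.4%, 1.90% and 2.60% of TCF7L2-only sites. The full β-catenin lists held 32.8%, 21.4% and 20.2% of the TCF7L2-only sites and 99.8%, 93.3% and 98.6% of the TCF7L1-only sites. For SOX2 the 10000 strongest peaks held 63.8%, 80.2% and 73.3% of shared, 36.7%, 55.2% and 52.2% of TCF7L1-only and 9.71%, 5.51% and 5.21% of TCF7L2-only sites. LEF1 replicates 2 and 3 held 92.2% and 54.7% of shared sites and 40.4% and 10.1% of TCF7L1-only sites. LEF1 replicate 1 held 12.7% and 0.967% of them. Of TCF7L2-only sites the 3 LEF1 libraries held 0.4%, 4.30% and 2.70%. The full lists, which differ in length, held more: 73.2%, 40.3% and 36.9% of TCF7L2-only sites in SOX2 and 2.00%, 19.0% and 49.1% in LEF1, against 90.0%, 88.1% and 82.2% and 8.14%, 71.2% and 72.7% of TCF7L1-only sites.

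The strongest sites of each class show the contrast in single values. At the Qrich1 promoter (chr9:108516603-108517438, ENSMUSG00000006673.14) the deposited fold was 182, 190 and 155 in the TCF7L2 libraries, with no peak in any full TCF7L1 list. Scamp5, which encodes a secretory carrier protein, had 171, 190 and 170, and Rps19, a ribosomal protein gene, 135, 165 and 151. At the Wdr77 promoter, which overlaps Atp5f1, the fold was 118, 160 and 144, and at the promoter of Mcts2, which lies within H13 and lacked the CGCG word, 141, 178 and 138. The absence of TCF7L1 peaks at these 5 was part of their choice. In β-catenin the Qrich1 site had no peak in replicate 1 and a fold of 3.97 and 3.98 in the others.

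The strongest TCF7L1-only sites were in introns or between genes. In an intron of Mogat2 (chr7:99236635-99237604), an acyltransferase gene, the fold was 69.6, 34.6 and 80.2 in TCF7L1, with no peak in TCF7L2. At Ppa2, a mitochondrial pyrophosphatase gene, it was 67.6, 29.1 and 98.2, and at Pdzrn4 54.5, 50.5 and 117. The remaining 2 lay between genes, with folds of 53.2, 34.0 and 69.5 on chromosome 14 and 54.3, 20.8 and 49.7 on chromosome 7. All 5 had a β-catenin peak in all 3 full lists, with folds of 37.1, 13.9 and 28.2 at Mogat2. This was common to the class, as the full β-catenin lists held 99.8%, 93.3% and 98.6% of all TCF7L1-only sites.

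Shared sites held the highest folds of TCF7L1, and the site nearest Efr3a had the highest fold of all 3 shortened lists. At an intronic site of Filip1l and Cmss1 (chr16:57473181-57474274) the fold was 215, 197 and 367 in TCF7L1 and 12.6, 85.0 and 43.2 in TCF7L2. The intergenic site nearest Efr3a (chr15:65749139-65750487) had 217, 223 and 416 in TCF7L1 and 14.7, 50.6 and 33.8 in TCF7L2. In Clstn2 the values were 217, 192 and 404 against 16.2, 35.4 and 32.5. TCF7L2 replicate 1 was the lowest of its group at each of these. β-catenin had a fold of 145, 110 and 193 at the Clstn2 site.

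Genes of the WNT pathway held sites of both targets. Of 15 WNT feedback and target genes, 11 had a TCF7L1 site (a peak in all 3 lists) in the gene or the 10 kb upstream, 10 had a TCF7L2 site and 7 had a shared site. Over all 21951 protein-coding genes the shares were 14.3%, 7.42% and 1.49%. Within 1000 bp of a start, 5 of the 15 had a TCF7L1 site and 7 a TCF7L2 site, against 1.67% and 4.94% of all genes. The list was made of known target genes, with earlier results known.

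Among the WNT genes, Sp5, a zinc finger factor induced by WNT, had a shared site 51 bp from its start with folds of 41.4, 40.5 and 91.9 in TCF7L1 and 31.0, 49.5 and 45.3 in TCF7L2. Axin2, the negative feedback scaffold of the pathway, had 2 shared sites at its promoter. The site 676 bp from its start had 38.0, 22.2 and 43.8 in TCF7L1 and 42.2, 51.8 and 45.5 in TCF7L2, and lacked the TCF sequence within 100 bp of the summit. The site 89 bp from its start held the sequence and had 31.3, 22.0 and 57.6 in TCF7L1 but 5.68, 7.03 and 7.01 in TCF7L2. Lef1 had a shared site 4369 bp from its start, with 29.7, 11.4 and 24.6 in TCF7L1 and 46.1, 53.2 and 62.8 in TCF7L2. Here every TCF7L2 library was above every TCF7L1 library, though folds are not on 1 scale between libraries. Cdx2, a caudal homeobox gene, had 92.7, 108 and 202 in TCF7L1 and 32.5, 55.8 and 57.6 in TCF7L2 at 2874 bp from its start.

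Nkd1, a feedback inhibitor of the pathway, had a TCF7L2-only site 96 bp from its start, with the TCF sequence and folds of 12.5, 6.06 and 10.9. At that site TCF7L1 replicates 1 and 3 had folds of 7.88 and 7.10 below their 10000 strongest peaks. Ccnd1, which encodes cyclin D1, had a TCF7L2-only site with the CGCG word and no TCF7L1 peak at 3668 bp from its start, with 18.8, 24.8 and 18.7. At 40 bp from its start it had a TCF7L1 site with the TCF sequence, at 28.9, 19.7 and 44.4 in TCF7L1. TCF7L2 folds there were 8.32, 4.80 and 7.37, and 2 of the shortened TCF7L2 lists held the site. Rnf43, a ubiquitin ligase that removes WNT receptors, had TCF7L1-only sites, with 20.3, 16.5 and 46.2 at the stronger. Dkk1 and T, the genes of a WNT antagonist and of brachyury, had no site in all 3 libraries of either target.

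Pluripotency genes held TCF7L1 sites. Of 15 naive pluripotency genes, 11 (73.3%) had a TCF7L1 site in the gene or the 10 kb upstream, against 14.3% of all genes, and 2 (13.3%) a TCF7L2 site, against 7.42%. Nanog, a homeobox gene of pluripotency, had a TCF7L1-only site 107 bp from its start with folds of 23.7, 13.6 and 29.7, and a TCF7L2 peak in replicate 3 alone, at 5.48. Pou5f1, the gene of OCT4, had a TCF7L1-only site 875 bp from its start at 33.4, 29.2 and 49.8, with TCF7L2 folds of 4.04 and 3.76 in replicates 2 and 3. Klf2 had its stronger site at 75.5, 44.5 and 146 in TCF7L1, and TCF7L2 replicates 2 and 3 held it at 13.3 and 8.87. Esrrb, an orphan nuclear receptor gene of naive pluripotency, had 4 TCF7L1 sites, of which the strongest had 40.3, 24.8 and 79.1. TCF7L2 replicates 2 and 3 held that strongest site at 6.75 and 10.0. The genes with a TCF7L2 site were Tfcp2l1, through a shared site of 96.8, 107 and 228 in TCF7L1 and 7.42, 15.7 and 19.3 in TCF7L2, and Klf4, through a site 118 bp from its start with 12.9, 14.4 and 15.2 in TCF7L2. At the Klf4 site TCF7L1 replicates 1 and 3 had folds of 13.5 and 6.97, and replicate 2 had no peak. Klf5, Zfp42 and Fgf4 had no site in all 3 lists of either target.

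Of 10 genes of the primed epiblast and the Nodal pathway, 5 had a TCF7L1 site and 1, Pou3f1, a TCF7L2 site, against 14.3% and 7.42% of all genes, so a count of 0 or 1 in a list of 10 lies near those shares. The TCF7L1 sites included that of Otx2, a homeobox gene of the primed epiblast, with 15.0, 13.7 and 24.9, and TCF7L2-only folds at Pou3f1 were 9.53, 13.7 and 10.4. Of 10 TCF, LEF and co-regulator genes, 5 had a TCF7L1 site and 0 a TCF7L2 site. Lef1 and Tcf7 were counted among the WNT genes instead, and had 3 and 0 TCF7L1 sites and 1 and 2 TCF7L2 sites. These counts are of the shortened lists. In the full lists every library had a peak at the Tcf7 site 1477 bp from its start. Folds there were alike, at 5.16, 5.68 and 9.36 in TCF7L1 and 5.46, 6.55 and 8.74 in TCF7L2. At the Tcf7 site at 369 bp, TCF7L1 replicates 1 and 3 had folds of 22.7 and 11.1, and replicate 2 had no peak. The highest TCF7L2 fold at that site was 20.7. Tcf7l1 had 4 TCF7L1 sites and Tcf7l2 had 2. The Tcf7l1 site 1380 bp from its start, at 25.8, 19.8 and 54.2 in TCF7L1 and 29.5 in TCF7L2 replicate 1, takes in peaks over an exon of that gene, which are counted apart. Of 10 ribosomal protein genes, 1 had a TCF7L1 site and 3 a TCF7L2-only site at their start (4.60% of all genes), Rpl4, Rpl10a and Rps6, all 3 with the CGCG word. Rpl10a had folds of 34.6, 56.8 and 53.4 in TCF7L2.

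Peaks over exons of Tfap2a, Tfap2c, Tcf7l1 and Tcf7l2 were counted apart, since TCF7L2 replicate 1 stood out there. Among its 10000 strongest peaks it had 7 over exons of Tfap2a, 6 over Tfap2c and 10 over Tcf7l1, with highest folds of 197, 91.3 and 61.6. TCF7L2 replicate 2 had 0 such peaks among its 10000 strongest and TCF7L2 replicate 3 had 2, both over Tfap2a. In TCF7L1 replicate 1 the counts were 4 over Tfap2a and 1 over Tcf7l1, in replicate 2 1 over Tfap2a, and in replicate 3 1 over each of these genes. The cause was not tested.

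At sites with a peak in the full lists of all 6 libraries, the deposited fold could be set side by side. There were 1153 such sites, including all 450 shared sites. As deposited, log2 fold was higher in TCF7L1 by a median of 2.58 over these sites. Quantile normalization over the 6 libraries brought the median difference to 0.22, and centring each library on its median brought it to 0.091, so a difference below is relative to the other sites of the same library. In limma, 59 sites (5.12%) were relatively higher in TCF7L1 and 146 (12.7%) in TCF7L2 at Benjamini-Hochberg adjusted p below 0.05. With libraries centred on the median instead, all 59 and all 146 kept their sign, and 43 of the 59 and all 146 passed again, but the counts rose to 170 (14.7%) and 293 (25.4%). As deposited, without scaling, all 59 had the higher fold in TCF7L1 and 68 of the 146 had it in TCF7L2.

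Sites relatively higher in TCF7L2 were at gene starts in 43.2% of cases and held the TCF sequence in 39.0%, against 12.3% and 56.5% of all 1153. Of the 450 shared sites, 55 were relatively higher in TCF7L2 and 17 in TCF7L1, with 25.5% and 0% of these at gene starts. The lowest p in favour of TCF7L2 were at the promoters of Dbr1, the lariat debranching enzyme gene, with folds of 57.4, 59.2 and 43.1 in TCF7L2 against 3.89, 3.12 and 4.58 in TCF7L1 (log2 difference −4.97 ± 0.26 SE, limma adjusted p = 1.4e-05), and of Atp5c1, a mitochondrial ATP synthase gene, with 57.5, 71.4 and 69.6 against 9.49, 5.00 and 9.28. The lowest p in favour of TCF7L1 was at a site between genes, at −97413 bp from the start of Mcph1, with 45.4, 34.8 and 82.0 against 3.06, 4.75 and 3.61 (log2 difference 2.10 ± 0.30 SE, limma adjusted p = 0.0017).

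The WNT list had 15 of these common sites, of which 5 were relatively higher in TCF7L2, against 12.7% of all 1153, and 0 in TCF7L1, against 5.12%, with a median log2 difference of −0.88 against 0.22 over all 1153. The 5 were at Lef1 (−3.27 ± 0.30 SE, limma adjusted p = 0.00013), Znrf3 at its start (−3.21 ± 0.37, adjusted p = 0.00053), Axin2 at 676 bp (−2.66 ± 0.26, adjusted p = 0.00019), Sp5 at 51 bp (−2.0 ± 0.27, adjusted p = 0.0014) and Tcf7 (−1.56 ± 0.31, adjusted p = 0.010). All 5 passed when centred. As deposited, the log2 difference at Sp5 had the other sign, 0.38, and those at the other 4 lay between −1.43 and −0.062. The site of Axin2 at 89 bp had 0.077 ± 0.25 (limma adjusted p = 0.84).

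Leaving out a library changed both the counts and the sites tested. Without TCF7L1 replicate 1, 13 of 1157 sites (1.12%) were higher in TCF7L1 and 84 (7.26%) in TCF7L2. Without TCF7L1 replicate 2 the counts were 185 and 237 of 1423 (13.0% and 16.7%), and without TCF7L1 replicate 3 they were 7 and 67 of 1132 (0.618% and 5.92%). Without TCF7L2 replicate 1 the sites numbered 2967, with 118 and 215 called (3.98% and 7.25%). Without TCF7L2 replicates 2 and 3 in turn, 133 and 184 of 1333 and 115 and 180 of 1417 were called. In each of these fits more sites were higher in TCF7L2 than in TCF7L1.

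The libraries of the other conditions had no part in choosing these sites, and allowed a test. Their labels name the same targets, TCF3 and TCF4, so the test asks whether lists of the same label held the same sites again. It cannot tell which protein was recovered there. All 18 TCF7L1 and TCF7L2 libraries of the 3 other conditions were shortened to 1628 peaks, the length of the shortest list, so a list could hold no more than 1628 sites. The 9 TCF7L2 libraries held 703 to 837 of the 999 TCF7L2-only sites of naive ESC, and the 9 TCF7L1 libraries 0 to 8 of them. Of the 3930 TCF7L1-only sites the TCF7L1 libraries held 80 to 377 and the TCF7L2 libraries 27 to 52. At this length the naive ESC TCF7L1 libraries, which chose these sites, held only 272 to 320 of them. The groups did not overlap in either count. An index, the log2 odds of holding a TCF7L1-only site minus the log2 odds of holding a TCF7L2-only site with 0.5 added to each count, was higher in TCF7L1 libraries by 13.0. Exact permutation within conditions, two-sided, gave p = 0.00025, the smallest that its 8000 assignments allow (adjusted p = 0.00025 over 4 tests). Lists of SOX2-ON TCF7L1 replicates 2 and 3 held 0 TCF7L2-only sites, so their index depended on the added 0.5.

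TCF7L2 lists held more gene starts than TCF7L1 lists in every condition. In the 1628 strongest peaks it was 53.6% to 68.4% over the 9 TCF7L2 libraries and 3.44% to 8.78% over the 9 TCF7L1 libraries, a mean difference of −57.3 percentage points. The CGCG word TCGCGAGA was at 19.5% to 21.6% of TCF7L2 peaks and 0% to 0.184% of TCF7L1 peaks, a difference of −20.6. The TCF sequence was at 18.4% to 26.1% of TCF7L2 peaks and 24.2% to 68.2% of TCF7L1 peaks, a difference of 33.7, where the lowest TCF7L1 libraries were replicate 1 of SOX2-ON, at 24.2%, and replicate 1 of CEpiLC, at 38.6%. The promoter and TCF differences each had p = 0.00025 in the same exact permutation test (adjusted p = 0.00025 over 4 tests, the CGCG share among them). The CGCG word was chosen at TCF7L2-only sites of naive ESC, which these TCF7L2 lists largely hold again. Its difference was thus partly set by that choice and is not read as a test. Replicates 1 of SOX2-ON and CEpiLC TCF7L1 were also left out, a choice made after seeing the data. The lowest TCF7L1 share of the TCF sequence was then 57.9%. The differences in the promoter, CGCG and TCF shares were −57.0, −20.5 and 40.2 percentage points, and that in the index was 13.7. Those in the promoter share, TCF share and index each had exact permutation p = 0.0005, the smallest that the remaining 2000 assignments allow. The lists overlap in the genome, so these shares count many of the same promoters again.

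**Figure D5:**
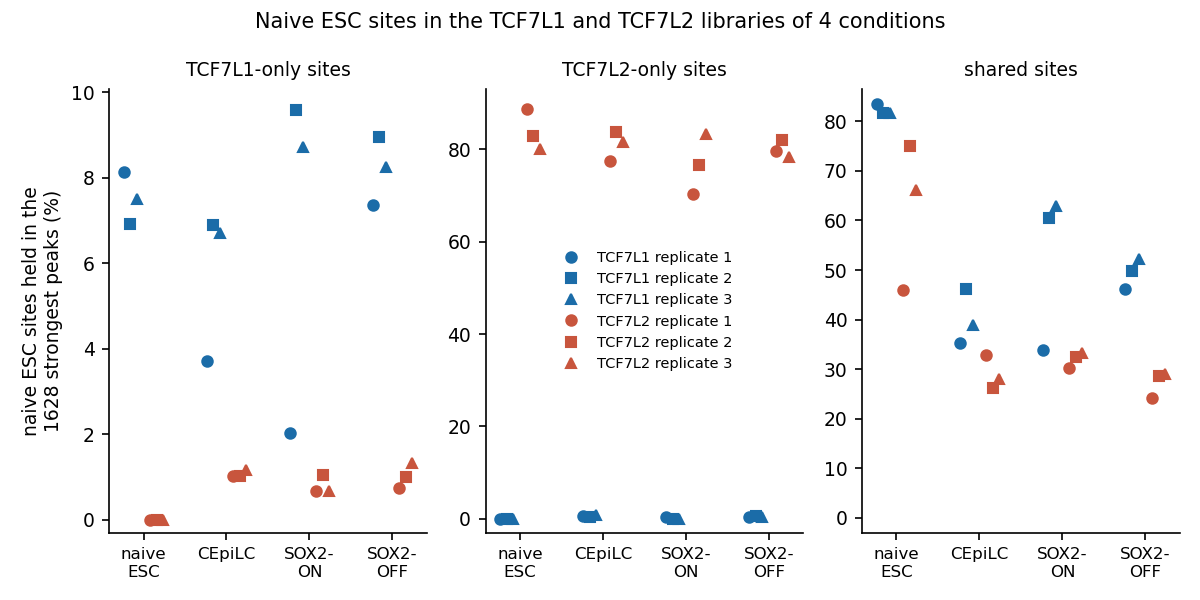
Share (%) of the TCF7L1-only, TCF7L2-only and shared sites of naive ESC that the 1628 strongest peaks of each TCF7L1 and TCF7L2 library held, in 4 conditions. Points are libraries. The naive ESC libraries, which chose the sites, are shown for reference. TCF7L2 libraries of the other conditions hold 70.4% to 83.8% of TCF7L2-only sites.

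Whether the difference between targets changed with the condition was tested by permuting conditions within each target. For the promoter share the difference between TCF7L1 and TCF7L2 was −52.7 percentage points in naive ESC, against −59.4 for CEpiLC, −55.7 for SOX2-ON and −56.8 for SOX2-OFF. None of the 9 tests, of 3 shares in 3 conditions, passed, with exact permutation p from 0.23 to 0.865 and adjusted p from 0.728 to 0.865, where 400 assignments allow 0.005. Shared sites were held less fully outside naive ESC, by 33.8% to 62.9% in TCF7L1 libraries and 24.2% to 33.3% in TCF7L2 libraries. In naive ESC, whose libraries chose them, the shares were 81.8% to 83.6% and 46.0% to 75.1%.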

How the data were processed

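Peak lists of the 6 naive ESC libraries, of the 9 β-catenin, SOX2 and LEF1 libraries of the same cells and of the 18 TCF7L1 and TCF7L2 libraries of the other conditions were read, 33 of the 64 libraries of the series. The members, gene lists and sequences were chosen with earlier results of these data known, and the CGCG word after its values were seen. Per the study's methods, the authors mapped single-end reads of 76 bp to mm10 with an nf-core pipeline and called narrow peaks with MACS2 in each library separately, and the submitters' processing notes name MACS2 and mm10. The deposited lists give for each peak the fold over control, a ratio, with the −log10 p and −log10 q as the authors' caller wrote them, and a summit. The pairing of inputs and the read depth are not given in the sources used here. The deposited score column, which the authors' caller made as 10 times the −log10 q, was not used.

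Lists were shortened to 10000 peaks by −log10 p, and peaks sharing 1 bp were merged. The summit of a site was the median over the libraries holding it. Promoters were 1000 bp on either side of protein-coding starts in GENCODE M21 basic (GRCm38, the build of the lists, with 0 peaks past a chromosome end), and the sequences printed were read from GRCm38.p6 of RefSeq. Single values were compared by exact permutation tests over libraries, with Benjamini-Hochberg adjustment. Log2 of the deposited fold at common sites was fitted in limma 3.58.1 (R 4.3.3). The scripts were tested on simulated data with known answers. Named sites were the 5 per class with the highest median fold, for the classes of a single target among sites with no peak in any full list of the other, and the 5 of lowest limma p in each direction, without chromosomes 18 and M and without exons of Tfap2a, Tfap2c, Tcf7l1 and Tcf7l2. Genes were taken from 5 lists of 60 genes. P-values measure the spread between replicates that the labels call biological.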

Additional observations from a re-analysis of the deposited data

How the results depend on the processing

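Of 222 values recomputed under alternatives, 187 were labelled the same, 29 moved, 3 were weaker and 3 changed direction. Those that moved were counts of sites, which have no direction to change, and the 3 weaker ones were of the carry-over index. The exact permutation tests of naive ESC cannot go below p = 0.1, so for them only direction and size could be compared. The TCF7L1-only sites moved with the list length, to 665 and 1732 with 2000 and 5000 peaks per library, 7173 with 20000 and 9541 with all deposited peaks, and the shared sites to 170 with 2000 and 1170 with all. Judging absence in the full lists left 1652 TCF7L1-only and 409 TCF7L2-only sites. Leaving out libraries gave 4103 to 5658 TCF7L1-only, 1004 to 1395 TCF7L2-only and 453 to 849 shared sites. Fewer lists then had to hold or lack a peak, so a rise in these counts follows from the rule and shows no stability. The difference in list length changed sign without TCF7L1 replicate 1 (−0.279), without TCF7L2 replicate 1 (−0.175) and without replicate 1 of both (−0.542), and ranged from −0.542 to 0.447. In limma, sites higher in TCF7L1 ranged from 1 to 185 and those higher in TCF7L2 from 41 to 259 with libraries left out. Centring on the median gave 170 and 293, and a −log10 q of at least 5 left 586 sites and 84 higher in TCF7L2. The carry-over index was 11.7 for CEpiLC alone, 14.5 for SOX2-ON alone and 12.6 for SOX2-OFF alone, each with exact permutation p = 0.1, the smallest that 3 against 3 allow, and 12.6 to 13.7 with a replicate number left out. Promoter share, TCF sequence share and partner overlaps kept their sign, but not their size. The promoter difference was −46.8, −24.8, −6.94 and −2.10 with 2000, 5000, 20000 and all peaks, the last with exact permutation p = 0.4. The TCF sequence difference was 13.7 with all peaks, and the LEF1 difference was 0.0033 (exact permutation p = 1) with LEF1 sites required in 3 of 3 lists.

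Replicate numbers did not pair the samples by the rule used: deviations of same-numbered libraries correlated at 0.119, 0.0873 and 0.123, with the second under 0.1. Each library nevertheless correlated best with its own number, a hint from the data alone. With the replicate block, limma called 84 sites higher in TCF7L1 and 154 higher in TCF7L2, and sign changes within pairs allow no p under 0.25 for naive ESC. Depth is unknown, so absence of a peak is not absence of binding.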
